A study of Mus musculus with 8 samples.

Results

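The genes described here are 36 imprinted genes of the mouse, chosen by symbol from a fixed list, of 55487 genes in the tables of counts and of TPM, a level per unit of gene length that sums to the same total in every library. All 36 symbols were found, and all 36 passed the filter on low counts. The list leaves out the H19-Igf2, Dlk1-Meg3 and Airn-Igf2r loci. RNA was taken from J1 mouse embryonic stem cells (ESC, day 0), which are of the 129S4/SvJae strain, untreated and kept in medium with LIF, and from 3 later stages of their differentiation towards cardiomyocytes. These stages were mesoderm (MES, day 4), cardiac progenitors (CP, day 6) and cardiomyocytes (CM, day 10), all derived from the same line and treated with 1 mM ascorbic acid. Embryoid bodies were formed in hanging drops and plated, and contracting patches were collected for the later time points, with no sorting of cell types described. Each stage had 2 biological replicates, sequenced as strand-specific libraries after removal of ribosomal RNA.

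In an imprinted gene the copy from 1 parent is silenced, and the other copy gives most of the RNA. The choice is set in the germ line by DNA methylation of a control region, and after fertilization it is kept by zinc finger proteins, their corepressor and the methyltransferases that copy the mark. Many imprinted genes lie in clusters, where a single control region acts on several neighbours, and many of them act on growth, the placenta, metabolism or the brain. Of the 36 genes, 21 are known to be expressed from the paternal copy in mouse and 13 from the maternal copy, at least in some tissues. For Grb10 and Gnas the copy depends on the tissue or the promoter. Counts per gene of an inbred line do not separate the 2 copies, so every value below is a total over both.

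Promoter sequences are shown for the divergent Peg3 and Usp29, for a pair that shares a RefSeq start, and for 3 single examples of paternally expressed genes that rose, chosen after their values were seen. Other large changes, such as those of Zim1 and Asb4, are given in values only. RefSeq windows on GRCm38.p6 were matched for 27 of the 36 genes, and only bases upstream of the annotated start are printed. Capitals mark the hexamer TGCCGC on either strand, which the imprint-keeping protein ZFP57 binds when its CpG is methylated. The first run is the interval between the RefSeq starts of Peg3 and Usp29, which are transcribed away from each other, at chr7:6730420-6730582 and read on the plus strand. The next 3 are the 250 bases before Plagl1 (chr10:13090582-13090831, plus strand), Mest (chr6:30737800-30738049, plus strand) and Nnat (chr2:157559828-157560077, plus strand), the 3 single examples. The last lies before the most distal RefSeq start of Snrpn (chr7:60450178-60450427, minus strand), which RefSeq gives to Snhg14 as well. It lies outside both GENCODE gene models, which on this strand start at 60140219 for Snrpn and 59975759 for Snhg14. Snrpn also has RefSeq windows nearer to its GENCODE model, which are not printed. Both Snrpn and Snhg14 fell by CM.
Peg3-Usp29 interval: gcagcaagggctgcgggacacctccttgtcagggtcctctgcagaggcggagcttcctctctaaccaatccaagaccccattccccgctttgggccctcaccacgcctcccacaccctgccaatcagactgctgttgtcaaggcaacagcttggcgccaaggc
Plagl1: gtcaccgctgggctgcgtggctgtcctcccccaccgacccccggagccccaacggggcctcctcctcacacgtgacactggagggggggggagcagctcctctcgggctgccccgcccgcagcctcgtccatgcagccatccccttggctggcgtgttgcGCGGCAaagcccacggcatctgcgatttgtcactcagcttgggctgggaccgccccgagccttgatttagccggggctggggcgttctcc
Mest: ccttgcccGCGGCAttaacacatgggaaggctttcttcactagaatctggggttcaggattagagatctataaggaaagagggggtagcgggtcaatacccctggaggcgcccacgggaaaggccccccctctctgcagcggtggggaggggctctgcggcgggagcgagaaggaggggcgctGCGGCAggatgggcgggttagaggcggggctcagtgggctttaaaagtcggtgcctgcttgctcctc
Nnat: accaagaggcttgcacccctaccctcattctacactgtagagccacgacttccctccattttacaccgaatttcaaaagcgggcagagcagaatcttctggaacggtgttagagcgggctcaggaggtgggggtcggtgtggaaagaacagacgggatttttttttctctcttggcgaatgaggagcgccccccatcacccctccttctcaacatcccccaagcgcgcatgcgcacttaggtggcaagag
Snrpn and Snhg14: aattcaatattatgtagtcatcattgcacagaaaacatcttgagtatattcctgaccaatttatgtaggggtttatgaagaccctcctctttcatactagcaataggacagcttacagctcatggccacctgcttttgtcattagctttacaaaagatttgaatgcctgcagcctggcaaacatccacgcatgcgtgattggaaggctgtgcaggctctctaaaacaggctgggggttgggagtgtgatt

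The hexamer occurred once before Plagl1 and 2 times before Mest. It did not occur in the other 3 runs, which says only that these letters are not in these windows. Over all 32817 promoter windows cut to the 250 bases before the start, 8.68% held the hexamer on 1 strand or the other. Among the 27 genes with a window, 6 held it in at least 1 window (Copg2, Mest, Nap1l5, Plagl1, Zdbf2 and Zim1). By window this was 7 of 39, or 17.9%, where 2 of the 7 are Mest windows that start 3 bases apart. CpG dinucleotides numbered 19 before Plagl1, 14 before Mest, 12 before Nnat and 2 before Snrpn and Snhg14, against a median of 6 over all windows of that length, and 5 in the 163 bases between Peg3 and Usp29. These matches describe the letters and not a bound site.

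Total counts per library ranged from 18046063 to 19728777. Replicates differed more in CM, with a chi-square of 33.2 per gene on average, than at the other stages, with 3.71 to 6.404. Marker lists were checked against the stage labels by summed TPM. The 8 cardiac markers summed to 266 and 502 TPM in CM and to 20.04 and 18.02 TPM in ESC. All 8 were called higher in CM than in ESC, a call that 29.8% of all genes tested had. In CP these markers summed to 342 and 493 TPM. In CM against CP 0 of the 8 were called higher and 1 lower, so they did not set CM apart from CP. The same CM libraries held 15063 and 9738 TPM of 8 smooth muscle and fibroblast markers and 555 and 865 TPM of 4 endoderm markers, and in CP 4 blood markers summed to 4018 and 3983 TPM. In MES the blood markers summed to 186 and 349 TPM, and the smooth muscle and fibroblast markers to 1154 and 1194 TPM. MES, CP and CM thus held RNA of markers of several cell types, and the part of each in the results below was not tested. In such bulk samples, fewer cells of a type and less RNA per cell cannot be told apart.

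The 36 listed genes took up a larger share of the RNA after ESC. Together they held 0.340% ± 0.0129 of all gene counts in ESC and 1.52% ± 0.0558 in MES (SD, n = 2 each). The share was 1.74% ± 0.0737 in CP and 1.69% ± 0.146 in CM (SD, n = 2 each). Peg10, Mest and Peg3 alone gave 64.0% to 67.0% of the counts of the 36 genes in MES, against 33.5% and 33.9% in ESC. In CP these 3 genes gave 50.8% and 53.2%, and in CM 46.7% and 47.0%. The median level over the 36 genes was 14.8 TPM at day 0, 38.9 TPM at day 4, 65.8 TPM at day 6 and 51.9 TPM at day 10. By stage mean TPM, ESC was the lowest stage for 25 of the 36 genes, and CP was the highest for 17 and CM for 12. Lowest and highest stages were not counted over all genes, so these numbers have no background. They also rest on TPM, whose scale differs from that of the edgeR changes given below. Tssc4 and Mkrn3, lowest in ESC by TPM, had edgeR log2 fold changes of -0.19 and -0.035 in CM against ESC. By edgeR, 27 of the 36 genes had a positive change in that comparison.

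**Figure D1:**
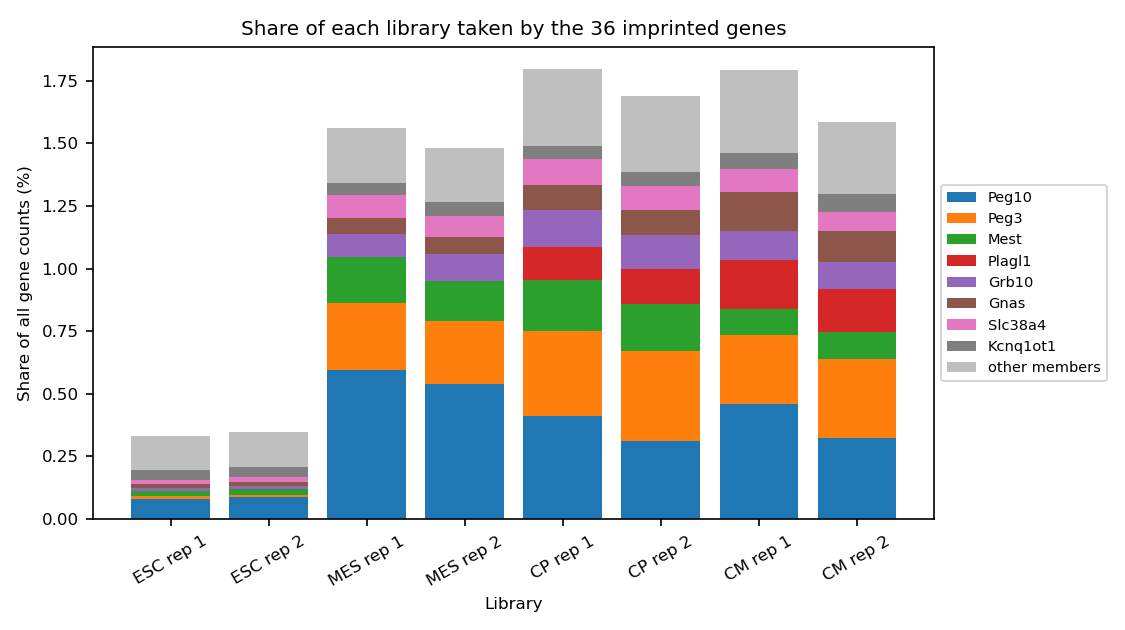
Share of all gene counts (%) held by the 36 imprinted genes in each of the 8 libraries, as stacked bars with 8 genes drawn apart and the other 28 together. The bars reach 0.331% and 0.349% in ESC, and Plagl1 forms a visible band only in CP and CM.

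A call needed both an edgeR adjusted p below 0.05 and a change of more than 2-fold either way, and the share of all 20071 tested genes called the same way is given as the background. The value after ± is the SE wherever it follows a log2 fold change. In MES against ESC, 18 of the 36 genes were called higher (background 19.4%) and 3 lower (background 16%), with a median log2 fold change of 1.13 over the 36 genes against 0 over all genes. In CP against MES, 7 were called higher (background 10.8%) and 2 lower (background 4.65%), with a median of 0.43 against 0. Without MES replicate 1 the genes called higher in this step numbered 3, and those called lower numbered 1 without either MES library or without CP replicate 2. In CM against CP, 1 was called higher (background 8.17%) and 4 lower (background 2.65%), with a median of -0.16 against -0.0037. The 1 call higher became 0 without either ESC library and 3 without CM replicate 2, and the 4 lower became 2 without CP replicate 1. In CM against ESC, 18 were called higher (background 29.8%) and 3 lower (background 21.8%), with a median of 1.09 against 0.11. The share called higher was thus above the background in MES against ESC and in CM against ESC. In CM against CP it was 2.78%, below the background, but this rests on 1 gene and moved with the libraries kept. The share called lower in CM against CP was 11.1%, above the background, and rests on 4 genes. MES against ESC and CM against ESC share the ESC libraries, so their counts are not independent.

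**Figure D2:**
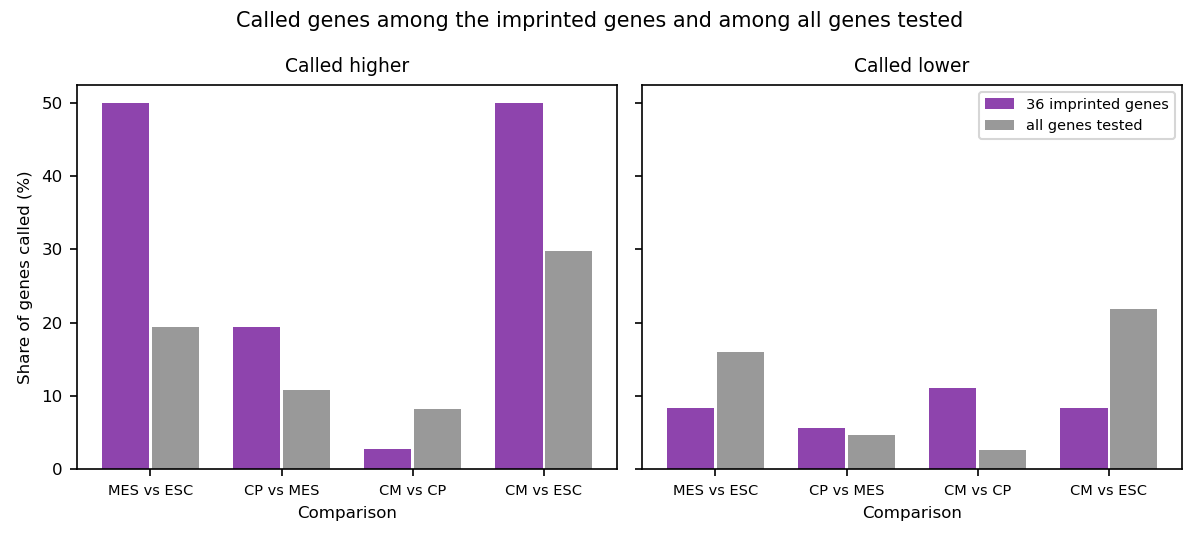
Share of genes called higher (left) and lower (right) in each comparison, as a percentage of the 36 imprinted genes (purple bars) and of the 20071 genes tested (grey bars). In MES against ESC the purple bar for higher calls stands at 50% and the grey bar at 19.4%, and in CM against CP they stand at 2.78% and 8.17%.

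No comparison called 10 of the genes, namely Cd81, Copg2, Impact, Kcnq1ot1, Mkrn3, Slc22a18, Trappc9, Tssc4, Ube3a and Zdbf2. Scaling by library totals in place of TMM shifted the median over all genes by 0.22 (log2) in CM against ESC and by less than 0.1 in the other comparisons, and no gene of the list that was called changed direction under either scaling tried. The printed TPM levels are on a scale of their own, so their ratios differ from the fitted changes. Ube3a, for example, had means of 41.0 TPM in ESC and 66.2 TPM in CM, beside a fitted log2 fold change of 0.26. The fitted changes of all 36 genes are drawn with their intervals in the plot of changes by gene.

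**Figure D3:**
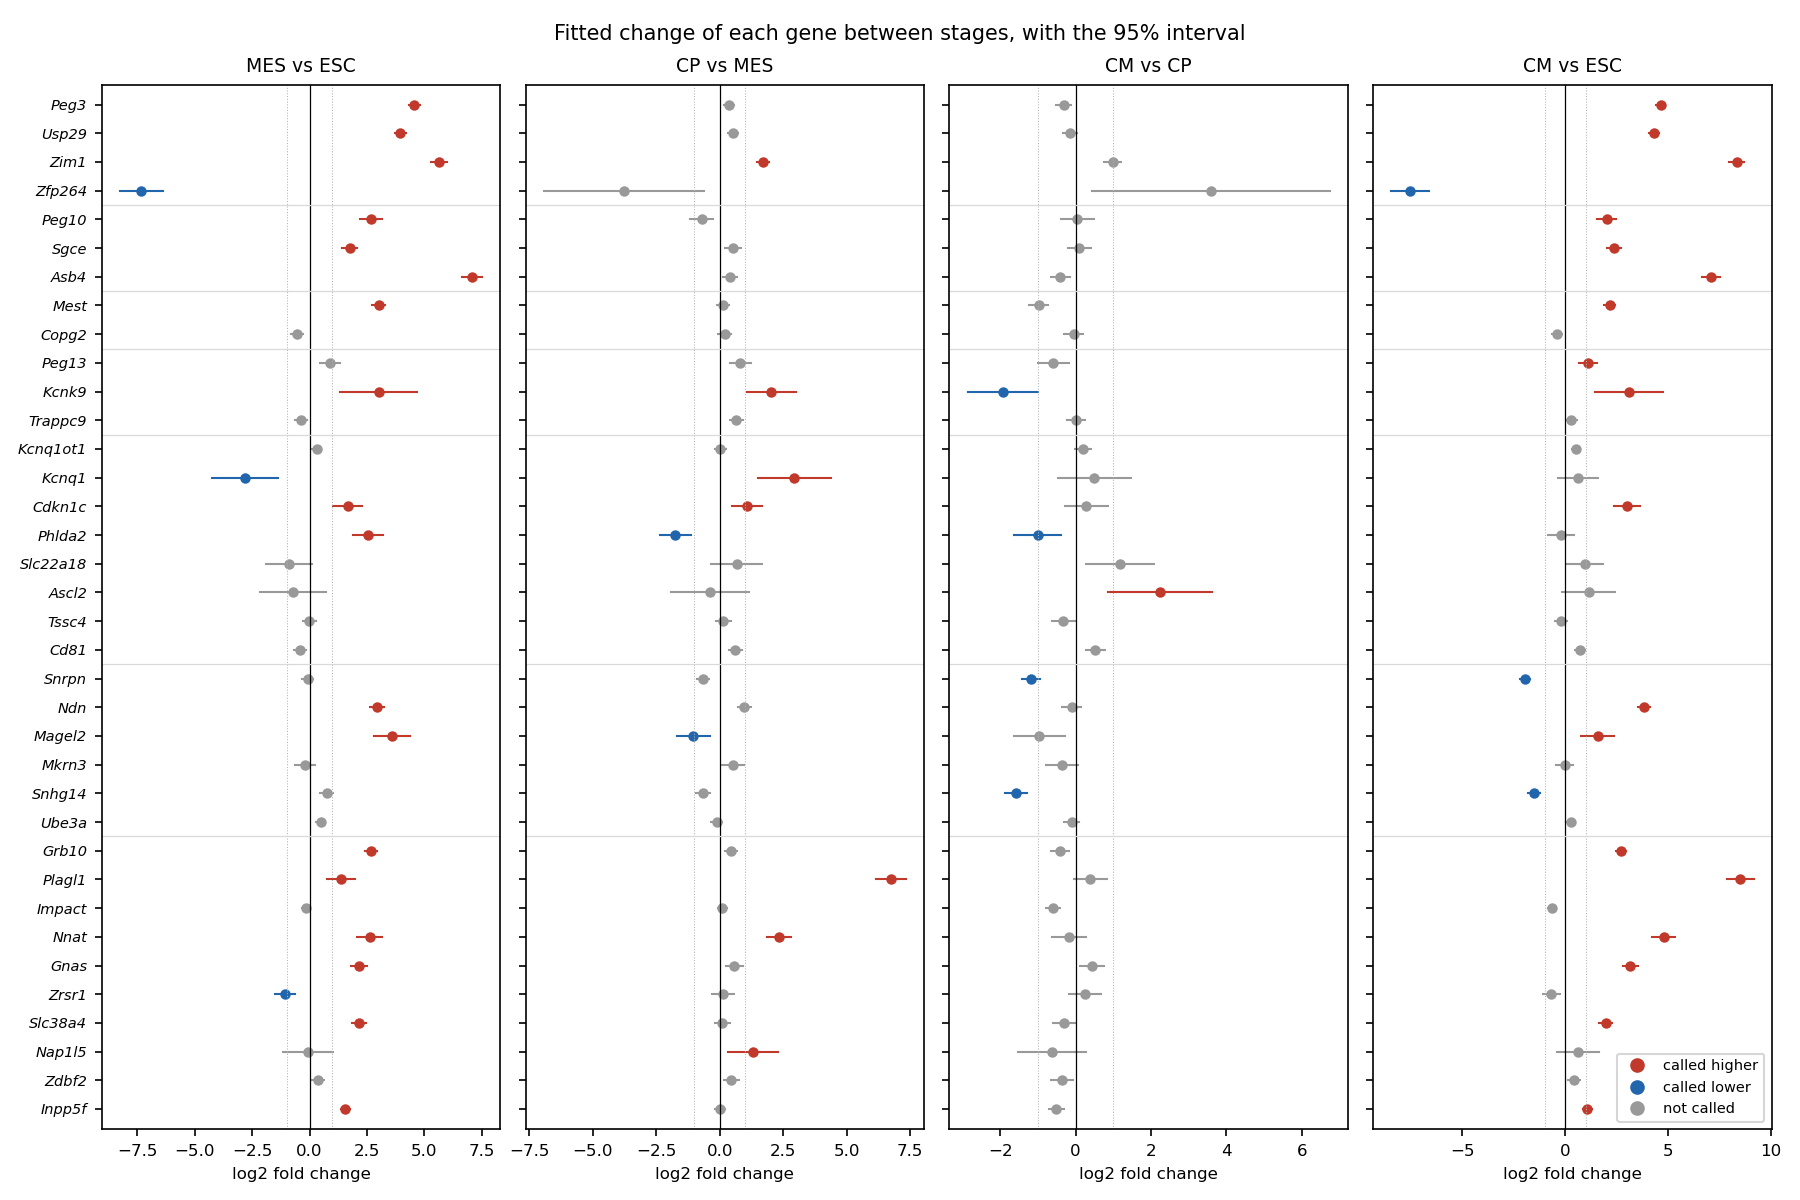
Fitted log2 fold change of each of the 36 genes (rows, grouped by locus) in 4 comparisons (panels), with the 95% interval as a line, dotted lines at a fold of 2 up and down, red for called higher, blue for called lower and grey for not called. The first and the last panel hold 18 red points each, and the third panel holds 1.

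In the Peg3 domain, Peg3, Usp29 and Zim1 rose in MES, and their neighbour Zfp264 fell. Peg3 (chr7:6703892-6730431, minus strand, GENCODE M21 on GRCm38) encodes a zinc finger protein and is expressed from the paternal copy. Its level was 25.9 and 26.5 TPM in ESC, 742 and 701 TPM in MES, 1006 and 1079 TPM in CP, and 810 and 957 TPM in CM. The ESC libraries lay far below all others, and the log2 fold change was 4.57 ± 0.10 in MES against ESC (edgeR adjusted p = 5.63e-09). Past MES the level of Peg3 moved little, by 0.37 ± 0.09 in CP against MES and by -0.31 ± 0.09 in CM against CP on the log2 scale, both within a fold of 2.

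Usp29, which encodes a member of the ubiquitin-specific protease family, starts 147 bases from Peg3 in the GENCODE annotation and runs the other way. It was at 0.876 and 0.926 TPM in ESC, 15.4 and 16.9 TPM in MES, 24.4 and 27.6 TPM in CP, and 22.8 and 26.3 TPM in CM. The shape over the stages was that of Peg3, at a far lower level, with log2 fold changes of 3.95 ± 0.11 in MES against ESC (edgeR adjusted p = 1.01e-08) and 4.32 ± 0.11 in CM against ESC (edgeR adjusted p = 3.98e-09). The interval between the starts of the pair is the first sequence printed above.

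Zim1, a maternally expressed zinc finger gene on the other side of Peg3, had 0.556 and 0.460 TPM in ESC, 29.3 and 29.9 TPM in MES, 95.9 and 120 TPM in CP, and 219 and 228 TPM in CM. It stepped up at each stage with no overlap between stages, by a log2 fold change of 5.65 ± 0.16 in MES against ESC (edgeR adjusted p = 1.28e-08) and 1.71 ± 0.11 in CP against MES (edgeR adjusted p = 1.02e-05). In CM against CP it was 0.98 ± 0.10 (edgeR adjusted p = 0.000282), just short of the fold limit, and over the path from ESC to CM it reached 8.34 ± 0.16 (edgeR adjusted p = 3.04e-09).

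Zfp264, annotated by GENCODE as a transcribed pseudogene and known to be paternally expressed, gave 275 and 241 counts in ESC, 2 and 1 counts in MES, 0 and 0 counts in CP, and 1 and 2 counts in CM. In TPM, ESC stood at 17.5 and 15.8, MES at 0.148 and 0.0736, and CM at 0.0715 and 0.159, so that ESC alone held a level above 1 TPM. The ratio of counts per total was 164-fold lower in MES than in ESC (exact 95% interval 55.9 to 799, counting error only; edgeR adjusted p = 1.2e-06) and 172-fold lower in CM than in ESC (58.5 to 836; edgeR adjusted p = 5.07e-07). In CP, where neither library had a count, Zfp264 was at least 171-fold lower than in ESC, with a floor of 3 counts over both libraries. Counts of 0 to 3 in the later stages do not allow any comparison among them. Within this cluster on chromosome 7, genes of both parental classes rose, and the single gene that fell lies 10026 bases beyond the end of Usp29.

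**Figure D4:**
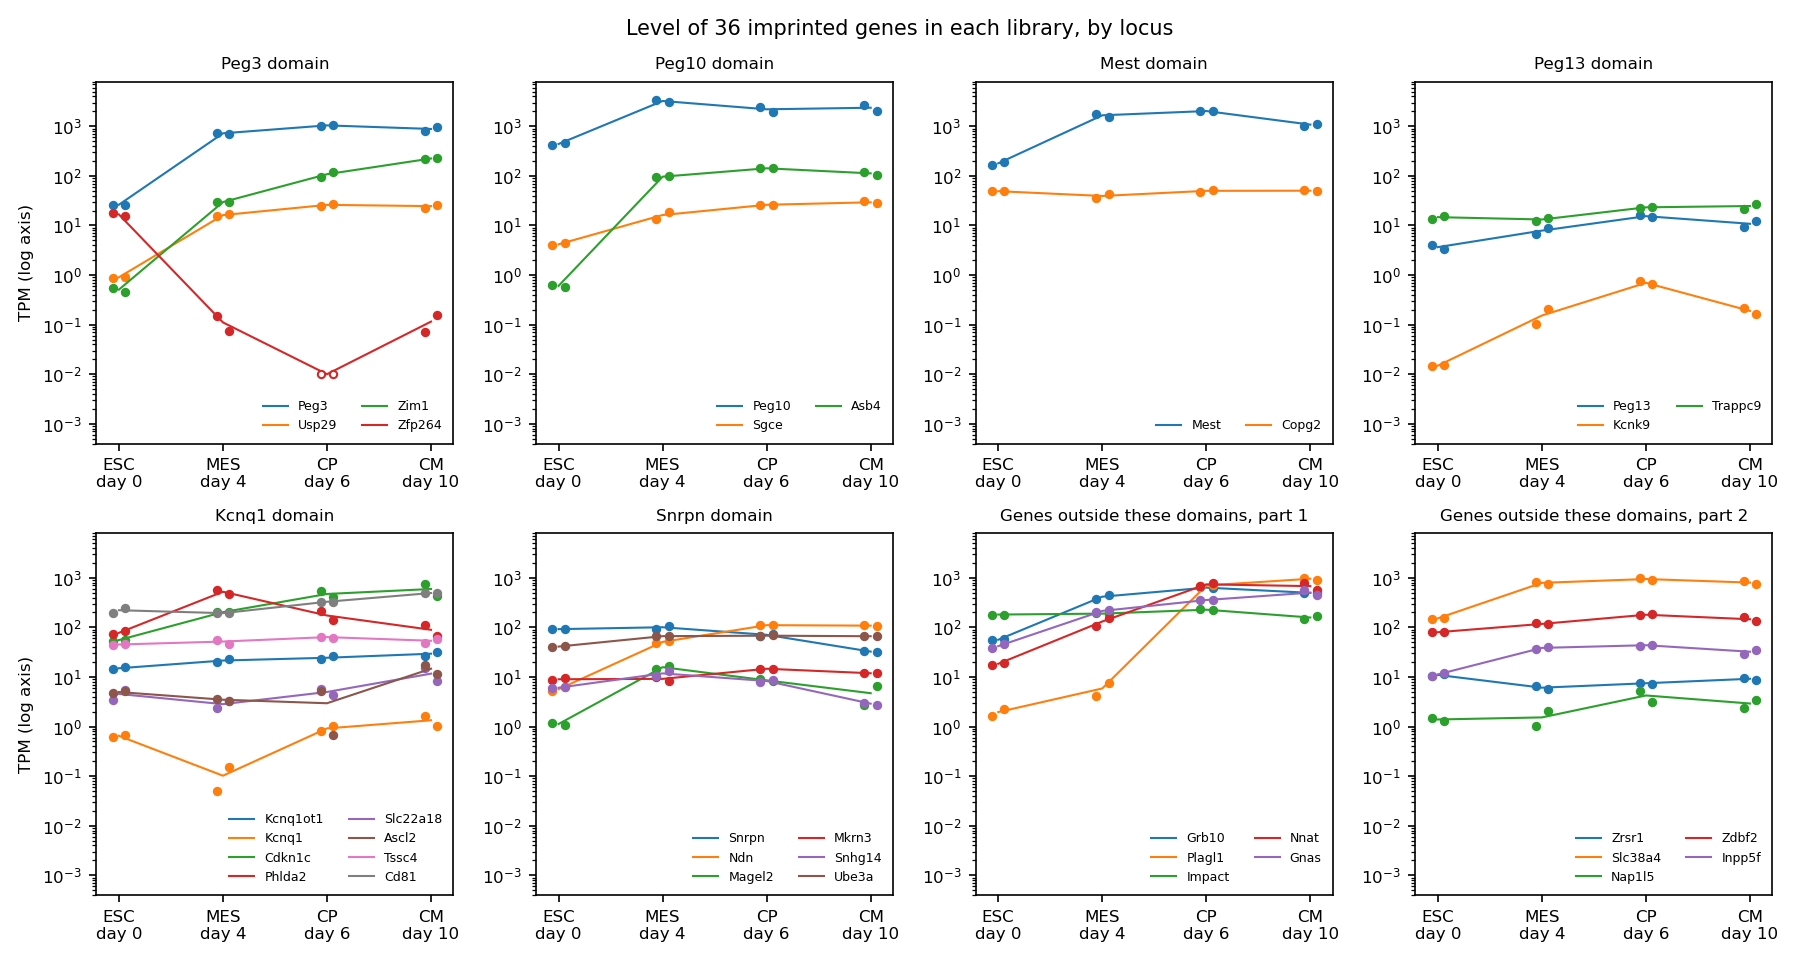
TPM (log axis) of the 36 genes in each library, by locus, with a point per replicate, a line through the stage means and the stages in order of day. Open points at the foot of the first panel stand for Zfp264 in CP, listed at 0 and drawn at 0.01. Peg3, Usp29 and Zim1 climb between ESC and MES while Zfp264 drops, and Plagl1 climbs between MES and CP.

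In the Peg10 domain, all 3 genes rose in MES. Peg10, a gene derived from a retrotransposon that the placenta needs, lies at chr6:4747306-4760517 on the plus strand and had the highest stage mean of the 36 genes at all 4 stages. It was at 424 and 455 TPM in ESC, 3373 and 3097 TPM in MES, 2471 and 1929 TPM in CP, and 2743 and 1992 TPM in CM. MES lay above both later stages, CP and CM overlapped, and the log2 fold change was 2.67 ± 0.21 in MES against ESC (edgeR adjusted p = 4.4e-06) and 2.01 ± 0.20 in CM against ESC (edgeR adjusted p = 1.4e-05). From day 4 to day 6 the change stayed within a fold of 2.

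Sgce, which encodes epsilon-sarcoglycan of the muscle membrane complex, starts 99 bases from Peg10 on the opposite strand, and both are paternally expressed. Its level was 3.98 and 4.35 TPM in ESC, 13.8 and 18.7 TPM in MES, 25.9 and 26.3 TPM in CP, and 30.5 and 28.1 TPM in CM. Unlike Peg10, Sgce had its highest libraries in CM, with log2 fold changes of 1.75 ± 0.15 in MES against ESC (edgeR adjusted p = 8.97e-06) and 2.38 ± 0.15 in CM against ESC (edgeR adjusted p = 5.73e-07). Between CP and MES the log2 fold change of Sgce was 0.53 ± 0.14 (edgeR adjusted p = 0.0153) and that of Peg10 was -0.71 ± 0.20 (edgeR adjusted p = 0.0194). Neither was called, and the difference between the 2 genes was not tested.

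Asb4 (chr6:5383386-5433022, plus strand), maternally expressed in the same cluster, encodes a substrate adaptor of ubiquitin ligases. It had 14 and 12 counts, or 0.641 and 0.567 TPM, in ESC, then 93.8 and 98.8 TPM in MES, 141 and 143 TPM in CP, and 120 and 104 TPM in CM. The ESC libraries were near 0 and the others were close together. At 7.09 ± 0.19 in MES against ESC (edgeR adjusted p = 1.11e-08), Asb4 had the largest log2 fold change of the 36 genes in that step other than the drop of Zfp264.

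The Mest domain holds Mest and Copg2. Mest (chr6:30723547-30748465, plus strand), a paternally expressed gene for a protein of the alpha/beta hydrolase fold and a marker of mesoderm, stood at 165 and 193 TPM in ESC, 1777 and 1554 TPM in MES, 2066 and 1992 TPM in CP, and 1036 and 1126 TPM in CM. It rose by MES, with a log2 fold change of 3.01 ± 0.12 (edgeR adjusted p = 6.54e-08), and both CM libraries lay between ESC and MES. In CM against CP the change was -0.98 ± 0.11 (edgeR adjusted p = 0.000402), short of the fold limit, and in CM against ESC it was 2.15 ± 0.12 (edgeR adjusted p = 1.88e-07). Its overlapping neighbour on the other strand, Copg2, which encodes a coat protein subunit of Golgi transport and is maternally expressed, had 48.5 and 49.6 TPM in ESC, 35.4 and 43.3 TPM in MES, 47.9 and 51.9 TPM in CP, and 51.8 and 48.6 TPM in CM. Copg2 was called in no comparison, and its log2 fold changes ranged from -0.53 to 0.19. The 2 genes share 912 bases of exon on opposite strands, which counting by strand keeps apart.

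Peg13 is a paternally expressed noncoding RNA in an intron of Trappc9. It had 3.96 and 3.35 TPM in ESC, 6.83 and 8.91 TPM in MES, 16.04 and 14.7 TPM in CP, and 9.38 and 12.2 TPM in CM. It was called higher only in CM against ESC (log2 fold change 1.11 ± 0.19, edgeR adjusted p = 0.000543). Trappc9, which encodes a subunit of a vesicle tethering complex, had 13.5 and 15.9 TPM in ESC, 12.4 and 14.0 TPM in MES, 22.7 and 23.7 TPM in CP, and 21.9 and 27.3 TPM in CM, and was not called. Peg13 lies on the strand of Trappc9, so reads from unspliced Trappc9 RNA could be counted to Peg13.

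Kcnk9, a maternally expressed gene for a potassium channel, was at the edge of detection, with 1 and 1 counts in ESC, 6 and 12 counts in MES, 43 and 37 counts in CP, and 13 and 9 counts in CM. CP was the highest stage by a wide gap, with 0.742 and 0.651 TPM, against 0.102 and 0.203 TPM in MES and 0.0146 and 0.0151 TPM in ESC, and CM had 0.214 and 0.164 TPM. The ratio of counts per total was 9.42 in MES over ESC (exact 95% interval 2.26 to 83.7; edgeR adjusted p = 0.00659) and 11.0 in CM over ESC (2.71 to 96.6; edgeR adjusted p = 0.00353). Between stages with more counts, the log2 fold change was 2.02 ± 0.43 in CP against MES (edgeR adjusted p = 0.00551) and -1.93 ± 0.42 in CM against CP (edgeR adjusted p = 0.00897). The call in MES against ESC was lost without MES replicate 2 (edgeR adjusted p = 0.0508), that in CP against MES without MES replicate 1 (edgeR adjusted p = 0.0523), and that in CM against CP without CP replicate 1 (edgeR adjusted p = 0.0784) and with DESeq2 (adjusted p = 0.0689).

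The Kcnq1 cluster of 8 genes did not move as a block. Its long noncoding RNA Kcnq1ot1 (chr7:143203458-143296549, minus strand), made from the paternal copy and known to silence neighbours in cis, was at 14.4 and 15.5 TPM in ESC, 19.9 and 23.0 TPM in MES, 22.8 and 25.9 TPM in CP, and 26.7 and 32.2 TPM in CM. It was called in no comparison, and its log2 fold change in CM against ESC was 0.53 ± 0.09 (edgeR adjusted p = 0.000485). The other 7 genes are maternally expressed in at least some tissues, and over the 4 comparisons they went in different directions.

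Cdkn1c (chr7:143458339-143461050, minus strand), which encodes an inhibitor of cyclin-dependent kinases, had 54.0 and 56.9 TPM in ESC, 205 and 200 TPM in MES, 530 and 413 TPM in CP, and 759 and 430 TPM in CM. It was higher at each later stage than in ESC, and CP and CM overlapped. Its log2 fold change was 1.66 ± 0.28 in MES against ESC (edgeR adjusted p = 0.000632) and 3.01 ± 0.28 in CM against ESC (edgeR adjusted p = 8.32e-06). In CP against MES it was 1.06 ± 0.26 (edgeR adjusted p = 0.0114), a call that was lost without either MES library or without CP replicate 1.

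Phlda2 (chr7:143501545-143503150, minus strand), which restrains growth of the placenta, peaked in MES. Its level was 72.5 and 82.6 TPM in ESC, 568 and 477 TPM in MES, 209 and 138 TPM in CP, and 112 and 67.3 TPM in CM. MES stood apart from all other stages, and CM overlapped ESC. Its log2 fold change was 2.54 ± 0.29 in MES against ESC (edgeR adjusted p = 4.91e-05), -1.75 ± 0.27 in CP against MES (edgeR adjusted p = 0.00109) and -1.01 ± 0.28 in CM against CP (edgeR adjusted p = 0.027). The last call was lost without CP replicate 1 (log2 fold change -0.66), without CM replicate 2 (-0.63), in a fit of the 4 libraries alone (-0.98) and with library totals (-0.95). In CM against ESC the log2 fold change was -0.21 ± 0.29.

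Kcnq1, a potassium channel gene of cardiac repolarization, was scarce, with 14 and 15 counts in ESC, 1 and 3 counts in MES, 16 and 19 counts in CP, and 33 and 19 counts in CM. MES was the low point, with 0.0512 and 0.153 TPM, against 0.615 and 0.681 TPM in ESC. Its log2 fold change was -2.81 ± 0.65 in MES against ESC (edgeR adjusted p = 0.0043) and 2.94 ± 0.63 in CP against MES (edgeR adjusted p = 0.00583). The second call was lost without MES replicate 1 (edgeR adjusted p = 0.0532). Kcnq1 stood at 0.830 and 1.004 TPM in CP and at 1.63 and 1.04 TPM in CM, where its log2 fold change against ESC was 0.62 ± 0.44, which was not called.

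Ascl2, a transcription factor gene of the trophoblast, had 4.77 and 5.16 TPM in ESC, 3.61 and 3.34 TPM in MES, 5.23 and 0.666 TPM in CP, and 17.8 and 11.5 TPM in CM. Both CM libraries lay above all others, and the CP libraries were far apart, at 40 and 5 counts. It was the 1 gene called higher in CM against CP, with a log2 fold change of 2.24 ± 0.62 (edgeR adjusted p = 0.0257). The call was lost without CP replicate 2 (log2 fold change 1.40, edgeR adjusted p = 0.0648), without either ESC library and in a fit of the 4 libraries alone. Of 5 trophoblast markers, 3 of the 4 tested were also called higher in CM against CP (background 8.17%), and Cdx2 was not (log2 fold change -0.62). These 5 summed to 83.5 and 59.1 TPM in CM, 28.9 and 23.4 TPM in CP, and 48.0 and 49.7 TPM in ESC. Tfap2c alone had 66.3 and 39.1 TPM in CM, 8.71 and 6.17 TPM in CP, and 44.5 and 45.4 TPM in ESC. Prl3d1 was listed at 0 in all 8 libraries and Elf5 at 0 in both CP libraries. The part of these markers in the result was not tested.

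The remaining 3 genes of the cluster were called in no comparison. Slc22a18, a gene for a membrane transporter, had 3.49 and 5.58 TPM in ESC, 2.34 and 3.31 TPM in MES, 5.62 and 4.33 TPM in CP, and 15.1 and 8.20 TPM in CM. Its 2 CM libraries were the highest but differed widely, and the log2 fold change in CM against CP was 1.18 ± 0.40 (edgeR adjusted p = 0.0574). Cd81, which encodes a tetraspanin of the cell surface, had 198 and 245 TPM in ESC, 195 and 192 TPM in MES, 331 and 326 TPM in CP, and 504 and 482 TPM in CM, where the log2 fold change against ESC was 0.72 ± 0.12 (edgeR adjusted p = 0.00031). Tssc4 had 44.1 and 46.2 TPM in ESC, 56.4 and 47.1 TPM in MES, 65.3 and 61.9 TPM in CP, and 49.2 and 58.1 TPM in CM, and its log2 fold changes ranged from -0.32 to 0.14.

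**Figure D5:**
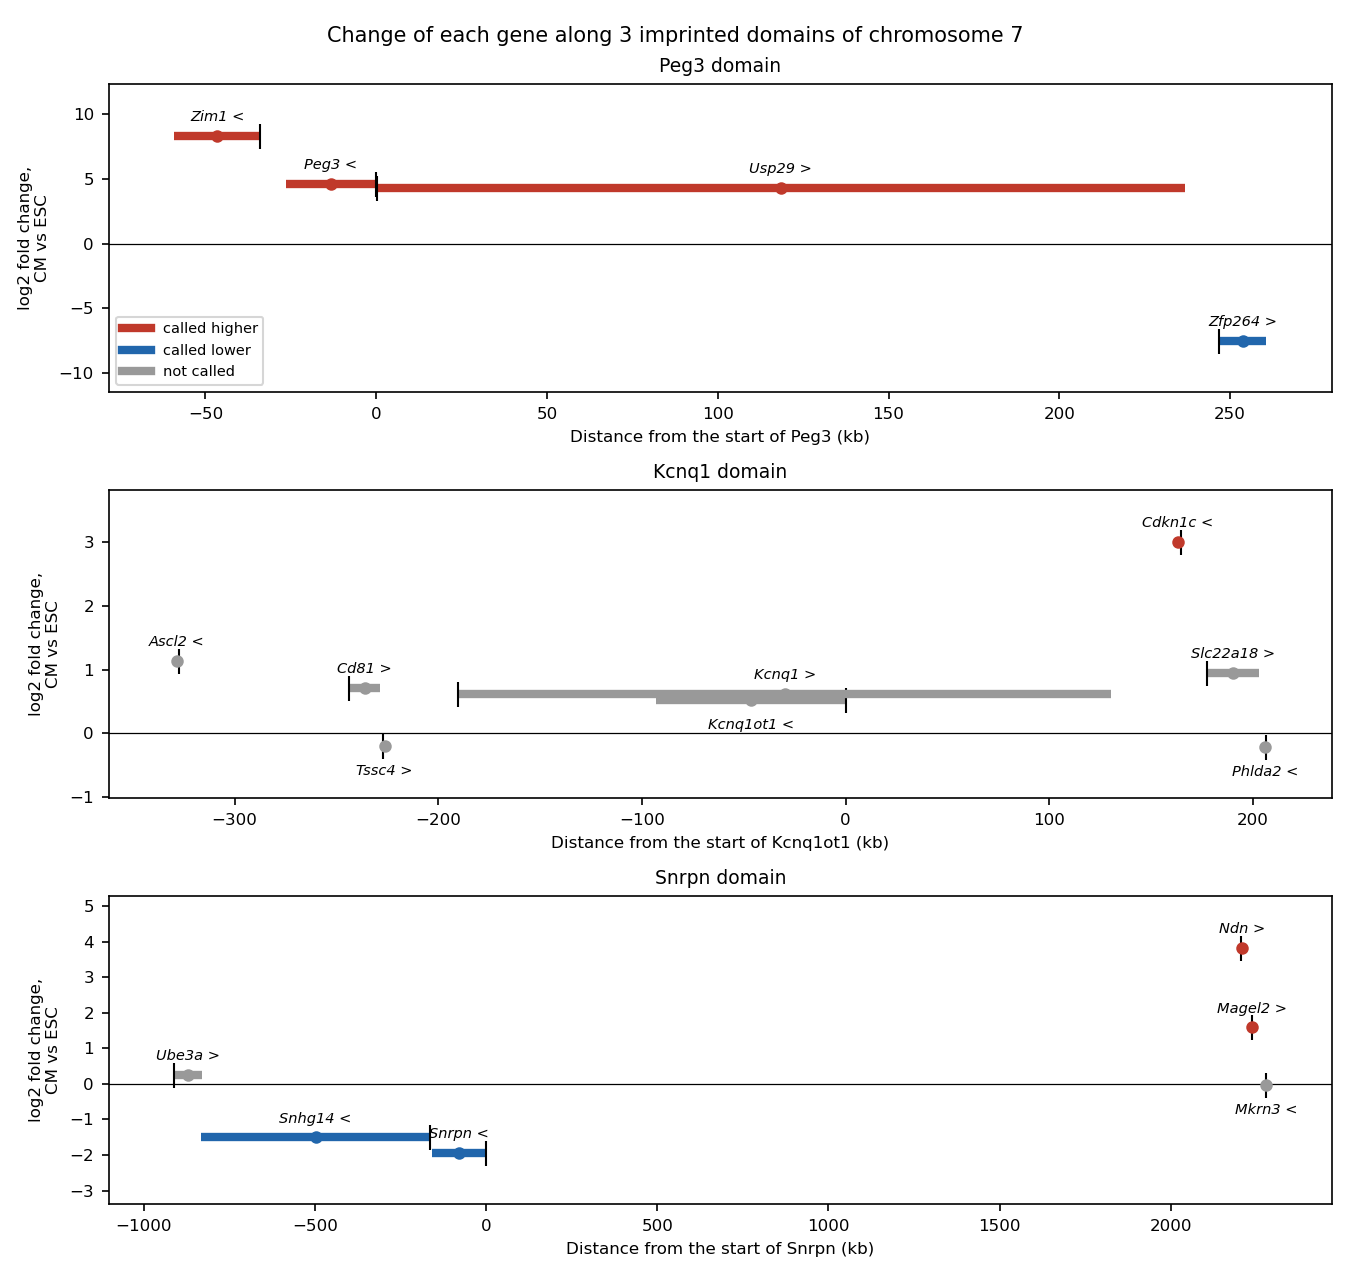
Fitted log2 fold change in CM against ESC (vertical axis) of each gene along the Peg3, Kcnq1 and Snrpn domains, with horizontal bars for the extent of the gene in kb from the start of Peg3, Kcnq1ot1 or Snrpn, a point at its middle, a black tick at its start and an arrowhead after its name for the direction of transcription. Red is called higher, blue called lower and grey not called. Each of the 3 domains holds genes that differ in their call, such as Zim1 at 8.34 and Zfp264 below 0 in the Peg3 domain.

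Within the Snrpn domain, Snrpn and Snhg14 fell and Ndn and Magel2 rose in CM against ESC, while Ube3a and Mkrn3, the outermost of the 6 genes, were not called. Snrpn (chr7:59982495-60140219, minus strand), a paternally expressed gene for a core protein of the spliceosome, was at 92.8 and 91.3 TPM in ESC, 94.2 and 107 TPM in MES, 68.3 and 73.2 TPM in CP, and 32.7 and 32.3 TPM in CM. ESC and MES were close, and CM was the lowest stage. The log2 fold change was -1.19 ± 0.11 in CM against CP (edgeR adjusted p = 0.000131) and -1.94 ± 0.11 in CM against ESC (edgeR adjusted p = 2.22e-07). Snrpn shares 589 exon bases on its own strand with the gene model Gm38393, which was listed with 13376 counts over the 8 libraries, so the split of reads between the 2 models is uncertain. Gm38393 itself had log2 fold changes of -1.64 ± 0.11 in CM against CP and -1.96 ± 0.11 in CM against ESC.

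Snhg14, the long noncoding host of small nucleolar RNAs that runs antisense into Ube3a, had 5.87 and 6.28 TPM in ESC, 10.6 and 13.03 TPM in MES, 8.03 and 8.52 TPM in CP, and 3.02 and 2.76 TPM in CM. MES held its highest libraries and CM its lowest, with no overlap between any stages. The log2 fold change was -1.58 ± 0.13 in CM against CP (edgeR adjusted p = 8.7e-05) and -1.502 ± 0.13 in CM against ESC (edgeR adjusted p = 4.01e-06). Ube3a, a ubiquitin ligase gene that is imprinted in neurons and expressed from both copies in most other cells, was at 40.1 and 41.9 TPM in ESC, 67.3 and 65.7 TPM in MES, 65.4 and 70.5 TPM in CP, and 66.8 and 65.7 TPM in CM. It was called in no comparison, and its log2 fold change in CM against CP was -0.10 ± 0.09, beside the fall of Snhg14 on the other strand. The 2 genes overlap by 1803 exon bases on opposite strands.

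Ndn encodes the growth suppressor necdin and Magel2 a related protein of endosomal sorting, both from the paternal copy. Ndn had 5.16 and 6.14 TPM in ESC, 49.3 and 52.5 TPM in MES, 112 and 109 TPM in CP, and 112 and 104 TPM in CM. It rose in MES with a log2 fold change of 2.96 ± 0.14 (edgeR adjusted p = 1.36e-07), and CP and CM were alike in level. In CP against MES its log2 fold change of 0.97 ± 0.11 (edgeR adjusted p = 0.00024) was just short of the fold limit, and in CM against ESC it was 3.83 ± 0.14 (edgeR adjusted p = 2.02e-08).

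Magel2 had 1.17 and 1.08 TPM in ESC, 14.8 and 16.7 TPM in MES, 8.94 and 8.13 TPM in CP, and 2.71 and 6.69 TPM in CM. It peaked in MES, and the CM libraries were far apart but both above ESC. The log2 fold change was 3.59 ± 0.35 in MES against ESC (edgeR adjusted p = 1.73e-05) and 1.59 ± 0.36 in CM against ESC (edgeR adjusted p = 0.00263). The change in CM was short of the fold limit without CM replicate 2 (0.91). The call in CP against MES (-1.04 ± 0.29, edgeR adjusted p = 0.0193) was lost with DESeq2, with either other scaling and without any 1 of the 4 MES and CP libraries. Mkrn3, a paternally expressed gene for a ubiquitin ligase beside Magel2, had 8.62 and 9.34 TPM in ESC, 9.95 and 8.34 TPM in MES, 14.6 and 14.7 TPM in CP, and 11.8 and 11.9 TPM in CM, and was called in no comparison.

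The other 10 genes lie outside these clusters. Plagl1 (chr10:13060504-13131694, plus strand), a paternally expressed gene for a zinc finger transcription factor, had the largest fitted change of the 36 genes in CP against MES, and in CM against ESC its change was within its SE of that of Zim1. It had 1.61 and 2.31 TPM in ESC, 4.15 and 7.57 TPM in MES, 671 and 728 TPM in CP, and 1007 and 907 TPM in CM. All 4 CP and CM libraries lay far above all 4 earlier ones. The log2 fold change was 6.75 ± 0.26 in CP against MES, a fold of 107 (edgeR adjusted p = 1.87e-06), and 8.501 ± 0.29 in CM against ESC (edgeR adjusted p = 1.63e-08). In MES against ESC it was 1.37 ± 0.27 (edgeR adjusted p = 0.00189), which went below the fold limit without MES replicate 2 (0.91).

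Nnat (chr2:157560078-157562522, plus strand), which encodes the small membrane protein neuronatin and lies in an intron of Blcap, rose over 2 steps. Its level was 17.4 and 19.4 TPM in ESC, 108 and 155 TPM in MES, 678 and 795 TPM in CP, and 791 and 566 TPM in CM. Stages up to CP did not overlap, and CM overlapped CP. Its log2 fold change was 2.62 ± 0.24 in MES against ESC (edgeR adjusted p = 1.23e-05), 2.33 ± 0.22 in CP against MES (edgeR adjusted p = 6.36e-05) and 4.78 ± 0.25 in CM against ESC (edgeR adjusted p = 1.61e-07). Its host Blcap was called in no comparison, with log2 fold changes of -0.26, 0.66, 0.43 and 0.84 in MES against ESC, CP against MES, CM against CP and CM against ESC.

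Grb10, Gnas, Slc38a4 and Inpp5f were called higher in MES against ESC. Grb10, which encodes an adaptor that dampens insulin and growth factor receptors, had 55.5 and 57.1 TPM in ESC, 379 and 453 TPM in MES, 648 and 618 TPM in CP, and 502 and 490 TPM in CM (log2 fold change 2.67 ± 0.11 in MES against ESC, edgeR adjusted p = 8.06e-08). Gnas, whose main product is the stimulatory G protein alpha subunit, had 38.4 and 45.2 TPM in ESC, 203 and 226 TPM in MES, 351 and 361 TPM in CP, and 557 and 446 TPM in CM. Grb10 was highest in CP and Gnas in CM, where the log2 fold change of Gnas against ESC was 3.16 ± 0.16 (edgeR adjusted p = 1.23e-07). The gene counts pool the imprinted and the other promoters of both genes. Slc38a4, a paternally expressed amino acid transporter gene of the placenta and liver, had 149 and 155 TPM in ESC, 836 and 745 TPM in MES, 977 and 910 TPM in CP, and 856 and 743 TPM in CM. It rose by 2.17 ± 0.14 on the log2 scale in MES against ESC (edgeR adjusted p = 1.03e-06) and held that level. Inpp5f, a phosphoinositide phosphatase gene with an imprinted promoter, had 10.7 and 11.9 TPM in ESC, 37.3 and 39.8 TPM in MES, 42.4 and 44.9 TPM in CP, and 29.0 and 35.5 TPM in CM, with log2 fold changes of 1.56 ± 0.09 in MES against ESC (edgeR adjusted p = 6.66e-07) and 1.07 ± 0.09 in CM against ESC (edgeR adjusted p = 4.04e-06).

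Of the remaining 4 genes, Zrsr1 and Nap1l5 were each called in a single comparison, and Impact and Zdbf2 in none. Zrsr1, a paternally expressed gene for a splicing factor that lies within Commd1, had 10.4 and 11.6 TPM in ESC, 6.53 and 5.61 TPM in MES, 7.56 and 7.37 TPM in CP, and 9.73 and 8.65 TPM in CM. It fell in MES against ESC by 1.06 on the log2 scale (SE 0.19, edgeR adjusted p = 0.00097), a change that went within a fold of 2 with library totals (-0.98), without ESC replicate 2 (-0.99) and without MES replicate 2 (-0.92). Nap1l5, of the nucleosome assembly protein family, lies in an intron of Herc3 and had 9 to 46 counts per library, with 1.46 and 1.31 TPM in ESC, 1.02 and 2.03 TPM in MES, 5.29 and 3.17 TPM in CP, and 2.41 and 3.41 TPM in CM. Its call in CP against MES (log2 fold change 1.31 ± 0.44, edgeR adjusted p = 0.0402) was lost with DESeq2 (adjusted p = 0.126), with a term for the replicate number (edgeR adjusted p = 0.0531) and without MES replicate 1, CP replicate 1 or either ESC library. The hosts Commd1 and Herc3 were called in no comparison.

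Impact, a paternally expressed gene for a regulator of translation under stress, had 181 and 181 TPM in ESC, 193 and 186 TPM in MES, 232 and 222 TPM in CP, and 145 and 171 TPM in CM. Its log2 fold change in CM against ESC was -0.64 ± 0.08 (edgeR adjusted p = 6.91e-05), within a fold of 2. Zdbf2, a paternally expressed zinc finger gene, had 79.0 and 80.7 TPM in ESC, 120 and 115 TPM in MES, 178 and 182 TPM in CP, and 159 and 132 TPM in CM, and its log2 fold changes ranged from -0.36 to 0.46.

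Grouped by the parental copy known to be expressed, 11 of 21 paternally expressed genes were called higher in MES against ESC and 2 lower, and of 13 maternally expressed genes 5 were called higher and 1 lower (background 19.4% higher and 16% lower). In CP against MES the counts were 3 higher and 1 lower of 21 paternal genes, and 4 higher and 1 lower of 13 maternal genes (background 10.8% and 4.65%). For CM against CP they were 0 higher and 2 lower of 21, and 1 higher and 2 lower of 13 (background 8.17% and 2.65%). For CM against ESC they were 12 higher and 3 lower of 21, and 4 higher and 0 lower of 13 (background 29.8% and 21.8%). By stage mean TPM, 8 of the 13 maternal genes had their highest level in CM, and 12 of the 21 paternal genes in CP. The 8 include Copg2, with means of 50.2 TPM in CM and 49.1 TPM in ESC. Its fitted log2 fold change in CM against ESC was -0.40, so this count holds for TPM and not for the fit. Highest stages were not counted over all genes, and the difference between the classes was not tested.

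A list of 20 genes encodes proteins that set, keep or remove the methylation at imprinted regions, and all 20 were tested. Of these, 1 was called higher and 8 lower in MES against ESC (background 19.4% and 16%), and 1 higher and 3 lower in CP against MES (background 10.8% and 4.65%). In CM against CP 0 were called higher and 2 lower (background 8.17% and 2.65%), and in CM against ESC 1 higher and 11 lower (background 29.8% and 21.8%). Their median log2 fold change in CM against ESC was -1.28, against 0.11 over all genes. The smallest adjusted p among the genes lower in CM than in ESC belonged to Tet1, an enzyme that oxidizes methylcytosine, with 14.9 and 16.1 TPM in CM against 377 and 402 TPM in ESC (log2 fold change -5.09). Dnmt3l, a cofactor of the methyltransferases that set imprints in germ cells, had 0.203 and 0.150 TPM in CM against 292 and 281 TPM in ESC (log2 fold change -11.01).

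Trim28, the corepressor recruited by ZFP57, was at 319 and 372 TPM in CM against 1337 and 1398 TPM in ESC (log2 fold change -2.43), and Hells, a chromatin remodeller needed for DNA methylation, at 43.5 and 59.6 TPM in CM against 351 and 364 TPM in ESC (log2 fold change -3.25). Tet3, a paralogue of Tet1, was the 1 gene called higher, with 68.6 and 86.6 TPM in CM against 12.9 and 12.9 TPM in ESC (log2 fold change 2.14). Zfp57, named after its values were seen because its hexamer is marked in the sequences above, was at 73.6 and 55.8 TPM in CM against 266 and 259 TPM in ESC (log2 fold change -2.44). The CM and ESC libraries of these 6 genes did not overlap, but the genes were named by these same values, so this adds no support. The 6 pluripotency markers summed to 57.4 and 72.9 TPM in CM against 2653 and 2624 TPM in ESC, and the part of the loss of pluripotent cells in these values was not tested. RNA levels of these factors do not show the methylation at any imprinted region, which was not measured here.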

How the data were processed

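The authors trimmed reads with Trim Galore 0.6.6, aligned them to GRCm38 with HISAT2 2.2.1 and counted them by strand with featureCounts 2.0.1 on Ensembl genes, and used DESeq2 1.34.0 for their own comparisons. The deposited counts are raw counts per gene, and the deposited TPM, rebuilt from counts and gene lengths, differed by at most 4.35e-06. Coordinates and overlaps were taken from GENCODE M21, which held 55227 of the 55487 gene identifiers and all 36 genes.

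The 36 genes and all gene lists were chosen with earlier results of these data known. Raw counts were tested with edgeR 4.0.16 (R 4.3.3), with TMM scaling, its low-count filter and the quasi-likelihood F-test. All 8 libraries entered 1 fit, so that stages share a spread per gene. The p-values, adjusted by Benjamini-Hochberg over 20071 genes, set a change against this shared spread between the 2 cultures per stage. They do not use the spread of CM alone, where replicates differed more. In a fit of the CP and CM libraries alone, 365 genes were lower in CM against CP, where the main fit gave 532. The SE is the log2 fold change over the square root of F. Ratios with 1 to 3 counts have exact 95% binomial intervals, and 0 counts were set to a floor of 3 over both libraries. The test was checked on simulated counts.

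Each of the 36 genes was given its TPM where it was called or had a stage mean of 10 TPM or more, and otherwise counts or ranges. Other genes come from fixed lists, with up to 4 imprint maintenance genes per direction by adjusted p in CM against ESC. Alternatives were DESeq2 1.42.0, library totals or DESeq2 size factors, no filter, no limit on the fold, a replicate block, a fit of 4 libraries and leaving out each library.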

Additional observations from a re-analysis of the deposited data

How the results depend on the processing

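Over the 36 genes and 4 comparisons, 1955 alternative values stayed on the same side of the call, 34 lost the call, 23 gained it and none reversed. Without a limit on the fold, 29 of the 36 genes were called in MES against ESC (23 higher and 6 lower) and 23 in CP against MES (18 higher and 5 lower). In CM against CP 15 were called (3 higher and 12 lower), and in CM against ESC 29, of which 6 were lower. In the same order, 11793, 7426, 5104 and 14790 of all 20071 genes tested were called without this limit. Genes lower in CP against MES numbered 1 with DESeq2, with library totals and with DESeq2 size factors, and genes higher in CM against CP numbered 3 with library totals. Leaving out 1 library at a time gave 16 to 19 genes higher and 2 to 3 lower in MES against ESC, 3 to 8 higher and 1 to 2 lower in CP against MES, 0 to 3 higher and 2 to 5 lower in CM against CP, and 18 to 19 higher and 3 to 3 lower in CM against ESC. In CP against MES the count of 3 came without MES replicate 1. In CM against CP the count of 0 higher came without either ESC library, that of 3 higher without CM replicate 2 and that of 2 lower without CP replicate 1. Over all genes, 934 were lower in CP against MES but 609 without CP replicate 2, and 1640 were higher in CM against CP but 921 without CP replicate 1 and 1057 without CP replicate 2. The cause of these shifts was not tested.

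The deviations of same-numbered libraries correlated at 0.0107 to 0.0748 over 20071 genes. This cannot decide whether the replicate numbers pair the libraries, since counting error of scarce genes also enters these deviations. With the replicate block, the call of Nap1l5 in CP against MES was lost (adjusted p = 0.0531) and Magel2 in CM against CP was called lower (log2 fold change -1.004). Depth limits Zfp264 after ESC, Kcnk9 in ESC and MES, and Kcnq1 in MES, at 20 counts or fewer per stage.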

Other observations

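A separate list of 20 other imprinted genes, of which 19 were tested and Htr2a was not, gave 5 genes higher and 3 lower in MES against ESC (19.4% and 16% of all genes tested) and 4 and 1 in CP against MES (10.8% and 4.65%). It gave 3 and 1 in CM against CP (8.17% and 2.65%), and 8 and 3 in CM against ESC (29.8% and 21.8%). Its median log2 fold change was 0.069 in MES against ESC and 0.70 in CM against ESC. Decorin (Dcn), a matrix proteoglycan of fibroblasts that is also on the fibroblast marker list, had the largest change of these, 9.90 in CM against ESC. Osbpl5, at the edge of the Kcnq1 cluster, had 4.53, and Cobl, beside Grb10, had -5.07. These 3 genes were named after their values were seen, and their part in any change of cell types was not tested.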
